A study of Mus musculus with 10 samples.

Results

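Fibrillar collagens are the chains that assemble into the banded fibrils of bone, tendon, skin and cartilage. Each procollagen molecule is a triple helix of 3 chains, which is trimmed at its ends outside the cell and then packs side by side with others into a fibril. Type I collagen, made of the products of Col1a1 and Col1a2, is the bulk protein of bone, and types III, V and XI join the same fibrils in small amounts, where types V and XI are known to start fibril formation and limit fibril width. The genes described here were chosen by name from the 38962 genes of the count table, as the 10 genes Col1a1, Col1a2, Col3a1, Col5a1, Col5a2, Col5a3, Col11a1, Col11a2, Col24a1 and Col27a1. Col2a1, of type II collagen, was not among them, so totals of the family are those of these 10 genes. All 10 passed the filter on low counts, which 22088 genes passed, and the lowest count of any of them in any library was 1338.

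The libraries came from femurs of 5 young (2 months) and 5 aged (22 months) male C57BL/6J mice, 1 library per mouse, and the labels name no treatment or altered allele in either group. RNA was taken from the femur cortex after the marrow had been flushed out and the bone pulverized, so it is that of all cells left in or on this bone. The young mice were bought from the Jackson Laboratory, while the aged mice came from the colony of the National Institute of Aging, so the supplier cannot be told apart from age. In such bulk samples fewer cells of a type and less RNA per cell cannot be told apart either.

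Libraries held 33447009 to 40395050 counts in young mice and 31788232 to 45075335 counts in aged mice. Levels are given as CPM, counts scaled to a common library size with TMM factors (trimmed mean of M values), and a gene is called higher or lower at an edgeR adjusted p of at most 0.05. By that rule 3.61% of the tested genes were lower and 3.68% were higher in aged bone, together 7.29%. The median log2 fold change of all tested genes was 0.01. Markers of other cells present in the bone were measured beside the collagens, and none of them was at 0 in every library. The summed level of 10 skeletal muscle markers ranged from 8805 to 27210.0 CPM in young and from 13481 to 34632 CPM in aged bone, and that of 10 marrow blood cell markers from 3339 to 7418 and from 2621 to 8486 CPM. None of these 20 genes was called (3 at an unadjusted p under 0.05). The 6 osteoblast markers summed to 2983 to 5669.7 CPM in young and 799 to 2905 CPM in aged bone, with 4 of 6 lower, and the 7 markers of periosteum, tendon and fibroblasts to 511 to 742 and 126 to 274 CPM, with only Postn called. Most of the osteoblast sum was Sparc, with means of 3567 of 4628 CPM in young and 1229 of 1615 CPM in aged bone. Most of the sum for periosteum, tendon and fibroblasts was Postn, with means of 528 of 657 and 111 of 213 CPM. The part of cell composition in the collagen results was not tested, apart from fits with the muscle and the marrow markers.

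The promoters of 8 of the 10 genes were in the RefSeq table for GRCm38.p6, and Col1a1 and Col5a2 were not matched. The 150 bases before the RefSeq start are shown, 5′ to 3′ on the strand of the gene, for Col1a2, for Col3a1, which had the largest fall of the 10 genes, and for the 2 type XI chains, whose levels parted with age. Capitals mark the letters CCAAT or, on the other strand, ATTGG. The RefSeq start is the start of the gene in the count table for Col3a1 and Col11a1, but lies 804 bases inside the gene of the table for Col1a2 and 299 bases before it for Col11a2.
Col1a2, chr6:4505468-4505617, + strand: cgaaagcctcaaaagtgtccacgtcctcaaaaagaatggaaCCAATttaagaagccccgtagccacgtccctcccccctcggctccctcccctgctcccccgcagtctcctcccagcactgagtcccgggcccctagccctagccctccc
Col3a1, chr1:45311388-45311537, + strand: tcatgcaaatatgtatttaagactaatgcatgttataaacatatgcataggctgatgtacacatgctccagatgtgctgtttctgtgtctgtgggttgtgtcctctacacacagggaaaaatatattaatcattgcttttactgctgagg
Col11a1, chr3:114030390-114030539, + strand: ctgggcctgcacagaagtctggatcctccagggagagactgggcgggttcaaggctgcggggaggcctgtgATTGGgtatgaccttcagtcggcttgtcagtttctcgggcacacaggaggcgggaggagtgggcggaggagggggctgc
Col11a2, chr17:34038988-34039137, + strand: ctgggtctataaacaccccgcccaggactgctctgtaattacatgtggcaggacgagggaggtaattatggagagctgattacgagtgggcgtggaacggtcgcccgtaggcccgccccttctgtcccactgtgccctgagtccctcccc

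Windows from 250 bases before to 50 bases after the start were searched on both strands for CCAAT, which the factor NF-Y is known to bind, for TATAA, known as a core promoter element, and for GGGCGG, which Sp1 is known to bind. CCAAT occurred in Col1a2, Col5a3 and Col11a1, and in 37.4% of all 32851 windows. TATAA occurred in Col3a1, where the match on the other strand overlaps it, and in Col11a2, and in 24.9% of all windows. On the strand of the gene its first base was at -117 from the RefSeq start in Col3a1 and at -143 in Col11a2. GGGCGG occurred in Col1a2, Col5a1, Col5a3, Col11a1, Col11a2 and Col27a1, and in 35.7% of all windows, and none of the 3 motifs occurred in Col24a1. Col11a1 and Col11a2 thus differ in the CCAAT and TATAA letters of these windows and share GGGCGG. Whether this bears on their levels was not tested. These matches describe letters only.

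Fibrillar collagen RNA took a smaller share of the bone transcriptome in aged mice. Together the 10 genes held 7.23% ± 1.35 of all counts in the young mice and 2.67% ± 0.938 in the aged mice (SD, n = 5 each). The young libraries ranged from 5.24% to 8.42% and the aged from 1.64% to 4.14%, without overlap. Of the 10 genes 8 were lower in aged bone, none was higher and 2, Col11a2 and Col27a1, were not called, beside 3.61% of all tested genes called lower. All 10 fitted values were below 0, with a median log2 fold change of -1.26, beside 0.01 for all tested genes. In 6 of the 10 genes every aged library lay below every young library by TMM, as it did in 4.12% of all tested genes. With scaling by total counts this held in 9 of the 10 genes, all but Col11a2, and in 4.32% of all tested genes. The groups thus overlapped for Col1a1, Col1a2 and Col27a1 by TMM but not by total counts. The gene Gm26917 alone took 19.1% ± 4.16 of all counts in young and 24.5% ± 6.65 in aged libraries (SD, n = 5 each). Its counts are part of the total in that scaling and in the shares above. With TMM factors computed without it 8 of the 10 genes were again lower, where 798 of all 22088 tested genes were. With DESeq2 all 10 genes were lower, where 5.81% of all tested genes were, and with scaling by total counts all 10 were lower, where 4.15% of all tested genes were and the median log2 fold change of all genes was -0.16.

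**Figure D1:**
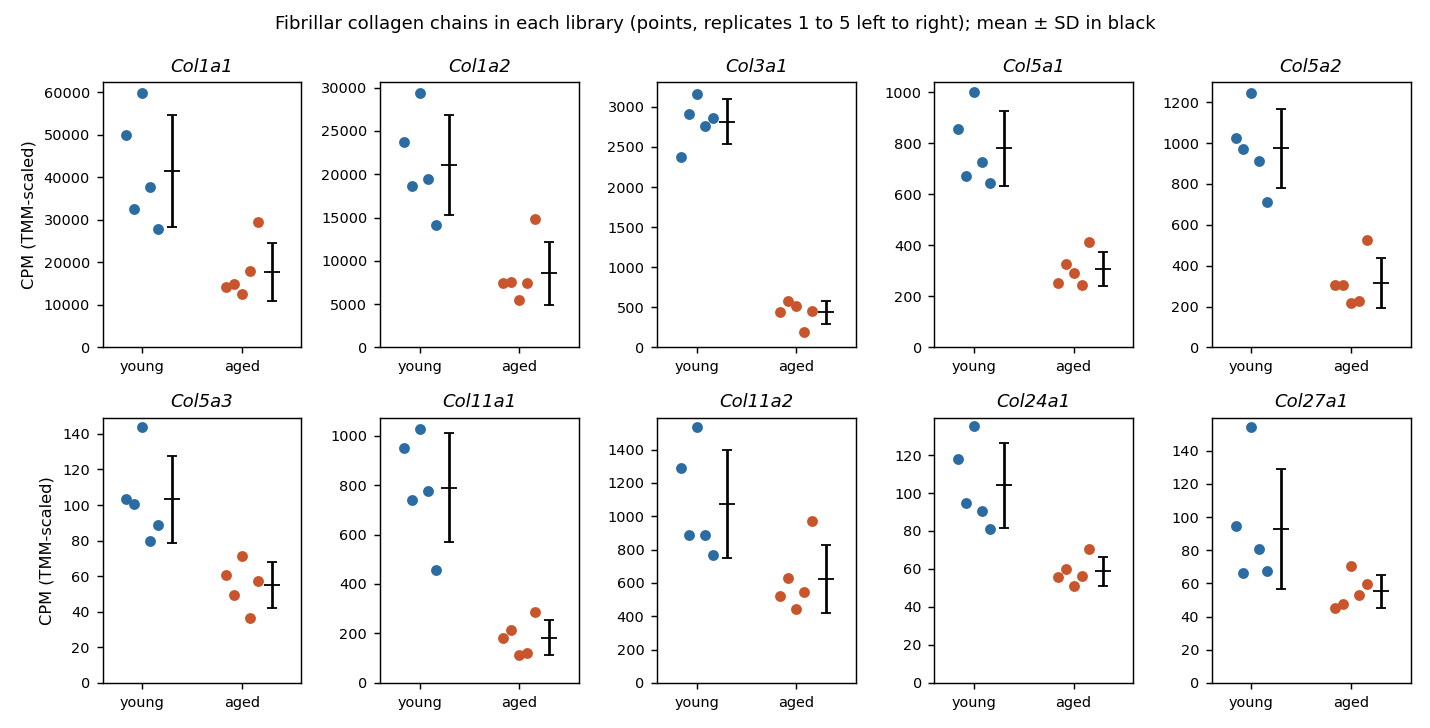
Level of each of the 10 fibrillar collagen genes in every library, in CPM on linear axes from 0 that differ between genes, with 1 point per mouse (replicates 1 to 5 from left to right) and the mean ± SD of each group in black. The groups lie apart in 6 of the 10 genes, and Col3a1 shows the widest gap, with 2814 ± 284 CPM in young and 437 ± 146 CPM in aged bone.

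Col1a1 encodes the α1 chain of type I collagen (ENSMUSG00000001506.10, GRCm38 chr11:94936224-94953042, + strand). Its level in young mice 1 to 5 was 49895, 32490.5, 59885, 37783 and 27822 CPM. In aged mice 1 to 5 it was 14165, 14878, 12561, 17875 and 29557 CPM. Aged mouse 5 lay above young mouse 5, so the groups overlapped, while the other 4 aged mice lay below every young mouse. The mean level was 41575 ± 13139 CPM in young and 17807 ± 6845 CPM in aged bone (mean ± SD over 5 mice), a log2 fold change of -1.22 (SE 0.30, edgeR adjusted p = 0.0267). This call was near the threshold: without the filter on low counts, or without any one of young mice 1, 3 and 4 and aged mice 1 to 3, the edgeR adjusted p was 0.0513 to 0.0640 with the direction kept.

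Col1a2 encodes the α2 chain, which joins the product of Col1a1 in the type I heterotrimer (ENSMUSG00000029661.16, chr6:4504814-4541544, + strand). Young mice 1 to 5 had 23667, 18679, 29385, 19423 and 14128 CPM of Col1a2. Aged mice 1 to 5 had 7433, 7565, 5479, 7431 and 14828 CPM. The order of the mice matched that of Col1a1 at the upper end, since aged mouse 5 again exceeded young mouse 5 and no other aged mouse did. The mean fell from 21057 ± 5756 to 8547 ± 3617 CPM (SD, n = 5; log2 fold change -1.30, SE 0.29, edgeR adjusted p = 0.0170). Single mice stood at the edge of their groups in several chains. Young mouse 3 was the highest young library in all 10 genes by TMM and in 3 by total counts, and aged mouse 3 the lowest aged library in 6 genes by both. Young mouse 5 was the lowest young library, and aged mouse 5 the highest aged library, for Col1a1, Col1a2, Col5a1, Col5a2, Col11a1, Col11a2 and Col24a1 by TMM (by total counts, young mouse 5 was lowest in 8 genes and aged mouse 5 highest in 5). In young mouse 5 and aged mouse 5 the osteoblast marker sum was 2983 and 2905 CPM, the lowest of the young and the highest of the aged libraries. By the group means most of this sum is Sparc RNA.

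Col3a1, whose product forms a homotrimer that mixes with type I collagen in soft and newly formed connective tissue, fell most of the 10 genes (ENSMUSG00000026043.18, chr1:45311538-45349706, + strand). Its level in young mice 1 to 5 was 2377, 2909, 3157, 2763 and 2866 CPM. In aged mice 1 to 5 it was 436, 577, 519, 196 and 456 CPM. The highest aged mouse stayed far below the lowest young one. The mean was 2814 ± 284 CPM in young and 437 ± 146 CPM in aged bone (mean ± SD over 5 mice), which is 6.44-fold lower, with a log2 fold change of -2.69 (SE 0.24, edgeR adjusted p = 7.5e-05). The spread of Col3a1 differed from that of the type I chains: the SD of its log2 CPM was 0.150 among young and 0.618 among aged mice, the latter with aged mouse 4 at 196 CPM. Neither young mouse 5 nor aged mouse 5 was at the edge of its group here.

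Type V collagen regulates the start and the width of type I fibrils, and all 3 of its chains were lower in aged bone. Col5a1 (ENSMUSG00000026837.16, chr2:27886425-28039514, + strand), its α1 chain, had 855, 672, 1001, 728 and 643 CPM in young mice 1 to 5. In aged mice 1 to 5 it had 254, 329, 291, 246 and 411 CPM. No aged mouse reached the lowest young mouse, and the mean fell from 780 ± 148 to 306 ± 67.3 CPM (SD, n = 5; log2 fold change -1.35, SE 0.17, edgeR adjusted p = 5.99e-04). Col5a1 overlaps the antisense genes 2810430I11Rik and Gm13372, and with strand use in counting unknown here, reads of these genes cannot be told apart from it. Other chains overlap annotated genes too. Col1a2 overlaps Gm43921 and Col5a2 overlaps Gm38211, each on its own strand, so strand would not part their reads. Col3a1 overlaps Gm47302, Col5a3 overlaps Gm26274 and Col27a1 overlaps Mir455.

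Col5a2, the α2 chain of type V collagen, lies 24614 bases past the end of Col3a1 on the opposite strand (ENSMUSG00000026042.16, chr1:45374321-45503282). Its level was 1025, 972, 1245, 912 and 714 CPM in young mice 1 to 5. It was 305, 305, 219, 229 and 525 CPM in aged mice 1 to 5. The groups did not overlap, and aged mouse 5 stood above the other 4 aged mice. The mean fell from 974 ± 192 to 317 ± 124 CPM (SD, n = 5; log2 fold change -1.62, SE 0.23, edgeR adjusted p = 0.00159), a smaller fitted change than that of its neighbour Col3a1. Col5a3, the α3 chain, is made in fewer tissues (ENSMUSG00000004098.7, chr9:20770050-20815067, - strand). It ranged from 80.0 to 144 CPM in young and from 36.5 to 71.1 CPM in aged mice, also without overlap, with a log2 fold change of -0.91 (SE 0.18, edgeR adjusted p = 0.0118).

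Type XI collagen is best known from cartilage, where it nucleates thin fibrils, and its chains can also combine with those of type V in bone and other tissues. Its 2 chains measured here did not change alike. Col11a1 (ENSMUSG00000027966.20, chr3:114030540-114220718, + strand) had 948, 741, 1027, 777 and 458 CPM in young mice 1 to 5. In aged mice 1 to 5 it had 181, 212, 112, 121 and 287 CPM. The groups did not overlap, although young mouse 5 lay well below the other 4 young mice. The mean fell from 790 ± 220 to 183 ± 71.9 CPM (SD, n = 5; log2 fold change -2.11, SE 0.28, edgeR adjusted p = 0.00153), the largest fitted fall after that of Col3a1.

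Col11a2 (ENSMUSG00000024330.17, chr17:34039437-34066685, + strand) had 1291, 885, 1535, 886 and 769 CPM in young mice 1 to 5. In aged mice 1 to 5 it had 522, 632, 442, 547 and 968 CPM. Aged mouse 5 lay above young mice 2, 4 and 5, while the other 4 aged mice lay below every young mouse. The mean was 1073 ± 325 CPM in young and 622 ± 205 CPM in aged bone (mean ± SD over 5 mice), with a log2 fold change of -0.79 (SE 0.23, edgeR adjusted p = 0.0587), so Col11a2 was not called. It was called as lower with scaling by total counts (edgeR adjusted p = 0.0185), with DESeq2 (adjusted p = 0.0142), without young mouse 5 (edgeR adjusted p = 0.0439) and without aged mouse 5 (edgeR adjusted p = 0.0161). The sum of the chondrocyte markers moved in the direction of the type XI chains. It ranged from 147 to 354 CPM in young and from 61.8 to 151 CPM in aged bone, and 5 of 8 tested genes were lower. Among the lower genes was aggrecan (Acan), the large proteoglycan of cartilage, at 44.5 ± 17.4 and 4.77 ± 3.39 CPM (SD, n = 5). Comp, Chad and Col9a3 were not called (log2 fold changes -0.15, -1.19 and -1.56). Comp held means of 78.6 of 261 CPM of the sum in young and 71.0 of 120 CPM in aged bone. Acan, Comp, Chad and Col9a3 were named here after their values were seen. The part of residual cartilage in the fall of Col11a1 was not tested.

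Col24a1 and Col27a1 encode the more distant fibrillar chains of types XXIV and XXVII, of which the former is known from bone and the latter from cartilage. Col24a1 (ENSMUSG00000028197.4, chr3:145292472-145552011, + strand) ranged from 81.1 to 135 CPM in young and from 50.8 to 70.6 CPM in aged mice, without overlap. Its log2 fold change was -0.82 (SE 0.14, edgeR adjusted p = 0.00442). It overlaps 9530034A14Rik on the opposite strand, from whose reads it cannot be told apart without strand, and D530037P16Rik on its own strand, from whose reads strand would not part it. Col27a1 (ENSMUSG00000045672.15, chr4:63214004-63334991, + strand) ranged from 66.3 to 154 CPM in young and from 45.3 to 70.2 CPM in aged mice. Aged mouse 3 lay above young mice 2 and 5. Its log2 fold change was -0.75 (SE 0.22, edgeR adjusted p = 0.0619), which was not called, but it passed with total counts, with the stricter filter on low values, with either marker covariate, without young mouse 5 and with DESeq2 (adjusted p = 0.0151), and without young mouse 3, the highest, its log2 fold change was -0.49 and was not called.

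**Figure D2:**
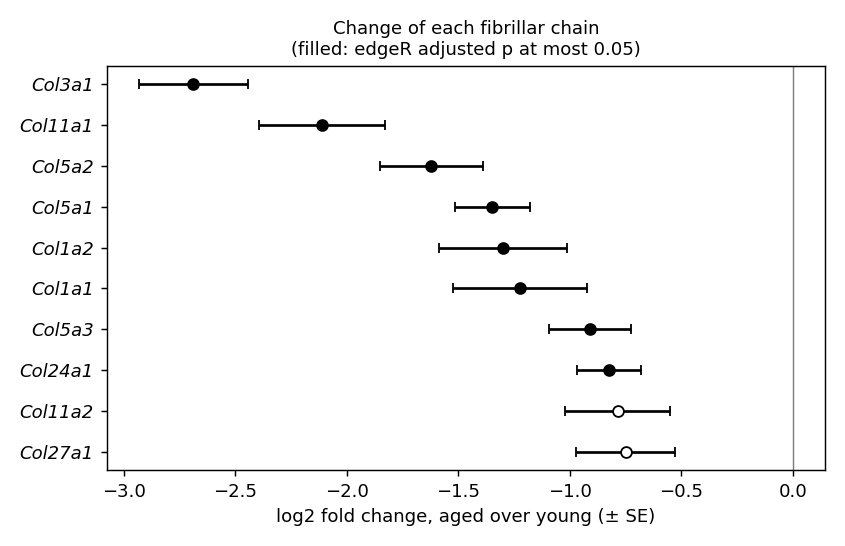
Log2 fold change of each of the 10 genes, aged over young, with bars of 1 SE, from the edgeR fit of 5 young and 5 aged libraries. Filled points mark called genes. All 10 points lie below 0, from -0.75 for Col27a1 to -2.69 for Col3a1, and Col11a2 and Col27a1 are the open points.

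The falls were also fitted beside the muscle and marrow marker levels. With the mean muscle marker level as a covariate 9 of the 10 genes were lower in aged bone, where 710 of all 22088 tested genes were. The fitted log2 fold changes were then -1.25 for Col1a1, -2.88 for Col3a1 and -2.14 for Col11a1. With the mean marrow marker level 9 of the 10 were lower as well, where 1083 of all 22088 tested genes were. In both fits Col27a1 passed and Col11a2 did not (edgeR adjusted p = 0.0293 and 0.0369 for Col27a1).

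The order of the chains in bone was compared per kilobase of gene model, since longer transcripts give more reads. In young bone the mean levels were 6335 CPM per kilobase for Col1a1 and 1695 for Col1a2. Col3a1 followed at 287 and Col11a2 at 156, then Col5a2 at 102, Col5a1 at 91.1 and Col11a1 at 62.0 CPM per kilobase. Col5a3 at 15.2, Col24a1 at 13.6 and Col27a1 at 7.12 CPM per kilobase were the least abundant. Of neighbours in this order, the ranges over young mice did not overlap between Col1a1 and Col1a2, Col1a2 and Col3a1, Col3a1 and Col11a2, and Col11a1 and Col5a3, and overlapped between all others.

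In aged bone the order per kilobase of gene model was the same apart from 2 exchanges. Col11a2, at 90.5 CPM per kilobase, ranked above Col3a1 at 44.5. This held in 5 of 5 aged mice, whereas Col3a1 was above Col11a2 in 5 of 5 young mice. With the length of the longest coding transcript in place of the gene model, a choice made after seeing the data, it held in 4 of 5 aged mice, with aged mouse 3 the exception, and the young order in 5 of 5. Col5a1, at 35.8 CPM per kilobase, stood above Col5a2 at 33.0, but in 3 of 5 aged mice only, so those 2 did not differ beyond their spread, and with transcript lengths Col5a2 was the higher in both groups by mean, while Col11a1 stood above Col5a1 in young and below it in aged bone. Ranges over aged mice did not overlap between Col1a1 and Col1a2, Col1a2 and Col11a2, Col11a2 and Col3a1, Col5a2 and Col11a1, and Col24a1 and Col27a1, and overlapped between the other neighbours. The type I chains kept the top of the order, with 2713 CPM per kilobase for Col1a1 and 688 for Col1a2.

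Shares were taken of the total of the 10 genes scaled by gene model length, and they depend on the length used. The 8 minor chains made up 8.66% ± 1.34 in the young mice and 6.82% ± 1.42 in the aged mice (SD, n = 5 each). The groups overlapped, with 7.30% to 10.3% in young and 5.10% to 8.18% in aged mice. Among these minor chains the mean shares of the total of the 10 genes differed in direction, and no share was tested. Col3a1 went from 3.50% ± 1.05 to 1.36% ± 0.662 (SD, n = 5), and Col11a1 from 0.599% to 0.813% over the young mice to 0.271% to 0.532% over the aged mice. Col11a2 went from 1.78% ± 0.0989 to 2.52% ± 0.259, a larger part of the family total in aged bone beside a lower mean CPM. Col5a1 was at 1.07% ± 0.122 and 1.03% ± 0.238. These shares describe proportions of one total, in which a fall of one chain raises the others.

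**Figure D3:**
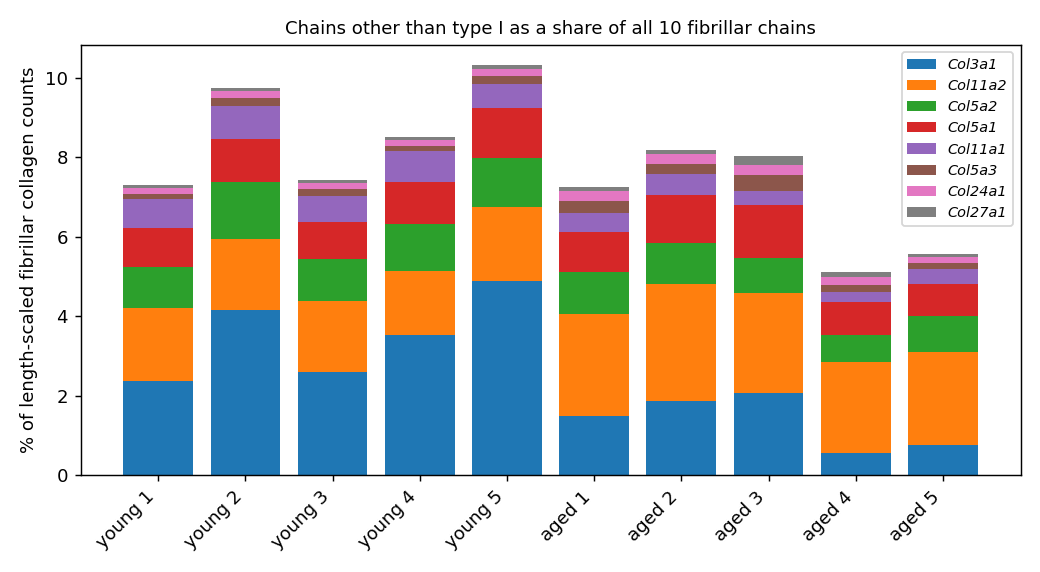
Share of each minor fibrillar collagen chain in the length-scaled total of the 10 genes, in percent, as 1 stacked bar per mouse, where the part up to 100% is type I. Lengths are those of the gene model. The Col3a1 block is the larger in each young mouse (mean 3.50%, Col11a2 1.78%) and the Col11a2 block in each aged mouse (mean 2.52%, Col3a1 1.36%). With the length of the longest coding transcript, Col3a1 would be the larger in aged mouse 3.

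Ratios of 2 chains within a library do not depend on how libraries are scaled, and 12 such ratios were compared between the groups by a two-sided exact permutation test on their log2 values. With 5 against 5 mice the smallest p this test can give is 0.00794, and p-values were adjusted over the 12 ratios. After adjustment 5 ratios passed and 7 did not. The ratios share chains and are not independent, and all 5 that passed hold Col3a1 or Col11a1, the chains with the largest fitted falls. Ratios are given per kilobase of gene model.

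The ratio of the type I chains did not differ detectably between the groups. Col1a1 over Col1a2 ranged from 3.29 to 3.99 in young mice (median 3.73) and from 3.61 to 4.55 in aged mice (median 3.77), a log2 difference of 0.11 (SE 0.08, exact permutation test, adjusted p = 0.277). The ratio depended on the length used for Col1a2, whose gene model holds 12426 bases against 5348 bases in its longest coding transcript: with such transcript lengths, a choice made after seeing the data, it was 1.77 ± 0.125 in young and 1.91 ± 0.200 in aged bone (mean ± SD over 5 mice). The difference between the age groups does not change with length.

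Type III fell relative to type I. Col3a1 over Col1a1 was 0.0319, 0.0599, 0.0353, 0.0489 and 0.0689 in young mice 1 to 5. It was 0.0206, 0.0259, 0.0276, 0.00732 and 0.0103 in aged mice 1 to 5. Every aged mouse lay below every young mouse, and aged mice 4 and 5 were the lowest. The ratio was 2.90-fold lower in aged bone, a log2 difference of -1.53 (SE 0.44, exact permutation test, adjusted p = 0.0238). Col5a2 over Col3a1 was in turn 2.14-fold higher, 0.356 ± 0.0711 in young and 0.813 ± 0.358 in aged bone (mean ± SD over 5 mice), with overlapping groups (log2 difference 1.10, SE 0.33, exact permutation test, adjusted p = 0.0381). Neither call held in every subset of mice: without young mouse 2, 4 or 5 the first had an adjusted p of up to 0.0714, and without young mouse 2, 3, 4 or 5 the second of up to 0.0794 (exact permutation tests), with the directions kept.

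The ratio of the 2 type XI chains separated the groups as well. Col11a1 over Col11a2 was 0.396, 0.452, 0.361, 0.473 and 0.321 in young mice 1 to 5. It was 0.186, 0.181, 0.137, 0.119 and 0.160 in aged mice 1 to 5. The lowest young mouse lay well above the highest aged mouse, and the ratio was 2.57-fold lower in aged bone (log2 difference -1.36, SE 0.16, exact permutation test, adjusted p = 0.0238). Leaving out any one mouse kept it between -1.44 and -1.27. Young mouse 5 had the lowest young value here too, but aged mouse 5 stood in the middle of its group.

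Col11a1 also fell relative to Col1a1 and Col5a1. Col11a1 over Col1a1 was 1.88-fold lower in aged bone, with all aged mice below all young mice (log2 difference -0.91, SE 0.21, exact permutation test, adjusted p = 0.0238). Col11a1 over Col5a1, whose products share heterotrimers, was 0.674 ± 0.112 in young and 0.394 ± 0.0958 in aged bone (mean ± SD over 5 mice; log2 difference -0.80, SE 0.21, exact permutation test, adjusted p = 0.0238). Here the groups barely parted, since young mouse 5 had 0.478 and aged mouse 1 had 0.477. The call for Col11a1 over Col1a1 was lost without young mouse 2, 4 or 5 (exact permutation test, adjusted p = 0.0635).

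The remaining ratios did not pass after adjustment. Col5a1 over Col1a1 was 0.0149 ± 0.00202 in young and 0.0139 ± 0.00339 in aged bone (mean ± SD over 5 mice; log2 difference -0.12, SE 0.18, exact permutation test, adjusted p = 0.532), a difference smaller than its error, which ranged from -0.21 to -0.02 with 1 mouse left out (-0.02 without aged mouse 4, -0.03 without aged mouse 5). Col5a2 over Col1a1 had a log2 difference of -0.44 (SE 0.16) and Col24a1 over Col1a1 one of 0.43 (SE 0.17), each at an adjusted p of 0.0635 by the exact permutation test. Col27a1 over Col1a1 (0.54, SE 0.25) and Col5a3 over Col5a1 (0.44, SE 0.20) had the same adjusted p of 0.0635 by that test. Col5a1 over Col5a2 differed by 0.32 on the log2 scale (SE 0.15, exact permutation test, adjusted p = 0.114). Single mice moved several of these: without aged mouse 5 the ratios Col5a1 over Col5a2, Col5a3 over Col5a1, Col24a1 over Col1a1 and Col27a1 over Col1a1 passed (exact permutation test, adjusted p = 0.0317, 0.0238, 0.0190 and 0.0190), and without aged mouse 1 so did Col5a2 over Col1a1 (0.0238).

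**Figure D4:**
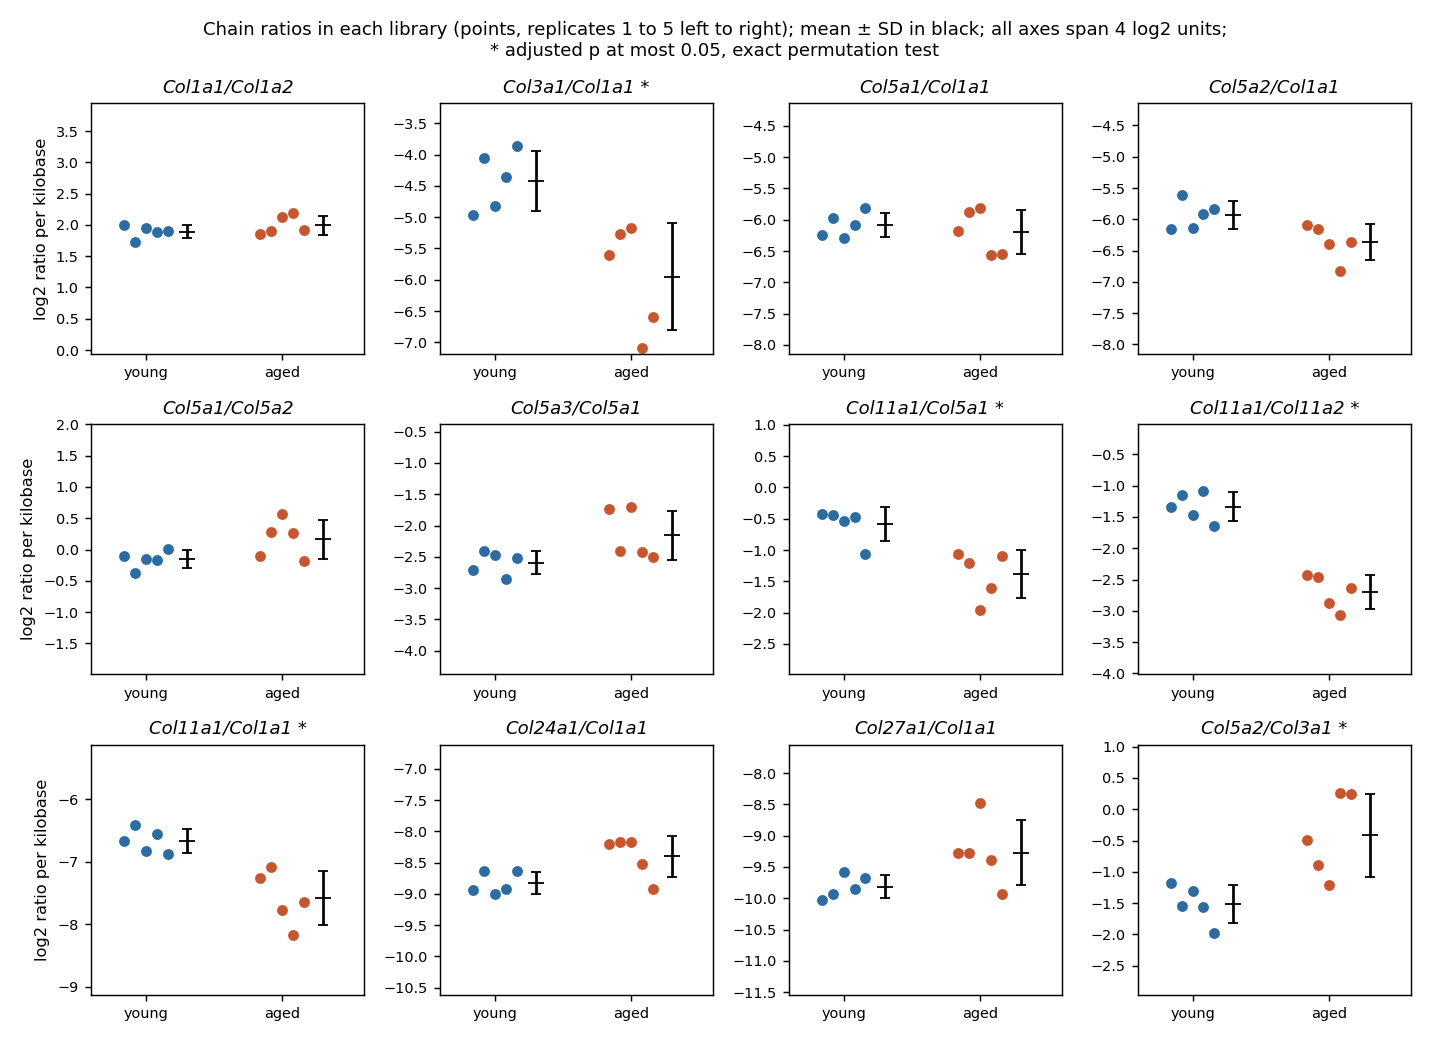
Log2 ratio per kilobase of the 12 compared pairs of chains, with 1 point per mouse, the mean ± SD of each group in black, axes that all span 4 log2 units, and an asterisk at an adjusted p of at most 0.05. The groups lie apart for Col3a1 over Col1a1, Col11a1 over Col5a1, Col11a1 over Col11a2 and Col11a1 over Col1a1, and overlap for Col1a1 over Col1a2, whose log2 difference is 0.11.

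How closely chains tracked each other from mouse to mouse was described by the SD of the log2 ratio within the groups, over all 45 pairs of the 10 genes. Among them Col1a1 and Col1a2 had the smallest spread, 0.129, followed by Col1a2 with Col11a2 at 0.132 and Col1a1 with Col11a2 at 0.143. Col5a1 with Col24a1 had 0.147 and Col1a2 with Col5a2 had 0.154, while the median pair had 0.322. The widest spreads all involved Col3a1: 0.692 with Col1a1, 0.642 with Col1a2 and 0.595 with Col11a2. The chain that varied most tightly with type I inside an age group, apart from its own partner, was thus Col11a2, and the one that varied least with it was Col3a1. The points of each pair share their libraries.

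**Figure D5:**
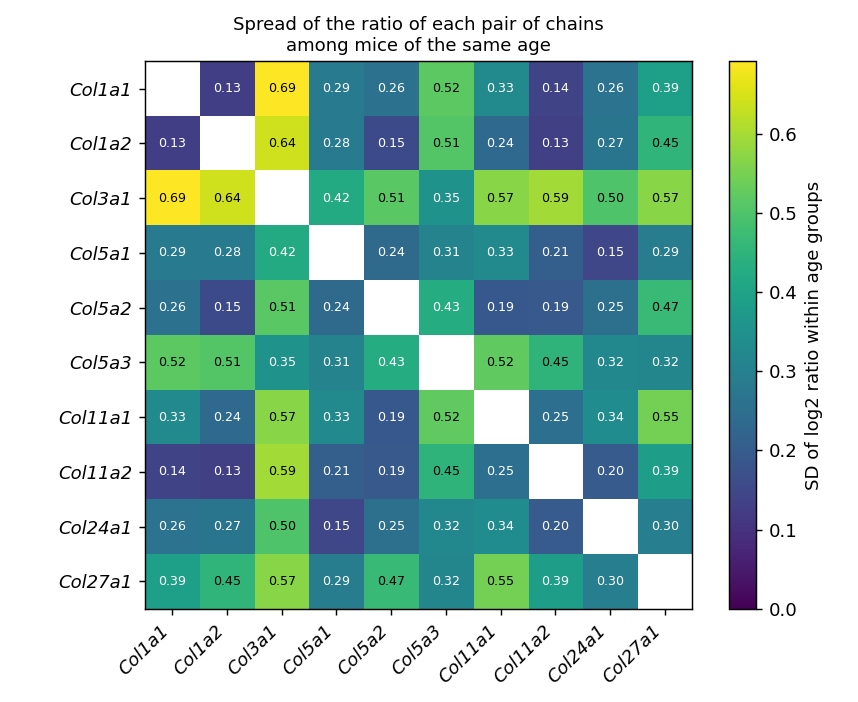
Heat map of the SD of the log2 ratio within the age groups for each pair of the 10 genes, with the SD written in each cell and coloured from dark (small) to yellow (large). Values run from 0.129 for Col1a1 with Col1a2 to 0.692 for Col1a1 with Col3a1, and the 3 largest values all lie in the line of Col3a1.

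Profiles over the 10 libraries were also compared with those of all other tested genes, by the root mean square difference of log2 CPM centred on each gene's mean. Nearest to Col1a1 outside the family were Smpd3 (0.166), an enzyme of sphingomyelin breakdown known from skeletal mineralization, Csrnp3 (0.225), Arfgef3 (0.232), Cemip (0.239) and Adam12 (0.239). In the same measure Col1a2 was at 0.127 and Col11a2 at 0.258. Nearest to Col3a1 were Lrrc15 (0.213), Col12a1 (0.225), Loxl2 (0.266), Tnn (0.272) and Gnasas1 (0.358), the last an antisense RNA whose reads cannot be told apart from its partner's without strand, and the nearest fibrillar chain, Col11a1, was farther away at 0.596. Profiles were centred over both age groups, so this measure includes the difference between the ages. Col1a1 and Col3a1 were 0.985 apart in it, so lists this near to each could not share a gene.

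Genes that act on fibrillar collagen as or after its chains are made, and the other collagens, were counted by role. Of 87 tested genes in 6 lists, 38 were lower and 4 higher in aged bone, with a median log2 fold change of -0.68, beside 3.61% and 3.68% of all tested genes. These lists were chosen with earlier results of these data known, and 7 of their genes, Sparc, Postn, Dpt, Col9a1, Col9a2, Col9a3 and Col10a1, also stand in the marker lists. Col12a1 and Col14a1, both lower, stand in the fibril surface list and in that of the other collagens. Each is counted 1 time among the 38.

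Chain modification covers the prolyl and lysyl hydroxylases, their partners such as Crtap and P3h4, the isomerase Ppib and the galactosyltransferases Colgalt1 and Colgalt2. Of these 15 genes 6 were lower, among them Crtap and P3h4, and none was higher, with a median log2 fold change of -0.48. P4ha3, a prolyl 4-hydroxylase subunit, went from 7.53 ± 0.878 to 1.85 ± 0.559 CPM (SD, n = 5; log2 fold change -2.03, SE 0.21, edgeR adjusted p = 2.26e-04). The prolyl 3-hydroxylases P3h3 and P3h1 had log2 fold changes of -0.60 and -0.71 (edgeR adjusted p = 0.00393 and 0.00666). Among 12 genes of folding and export, 5 were lower and 1 higher, with a median of -0.53. The lower genes included the collagen prolyl isomerases Fkbp14 (log2 fold change -1.09) and Fkbp10 (-0.98) and the collagen-binding glycoprotein Sparc (-1.54). The one higher gene was Tmem38b, an endoplasmic reticulum cation channel, at 24.0 ± 3.16 CPM in young and 38.8 ± 8.50 CPM in aged bone (mean ± SD over 5 mice; log2 fold change 0.69, SE 0.15, edgeR adjusted p = 0.0134).

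Propeptide cleavage trims procollagen before fibrils form. Of 8 tested genes, 4 were lower and none was higher, with a median log2 fold change of -0.64, and Mep1a and Mep1b did not pass the filter on low counts. The procollagen N-proteinases Adamts2 and Adamts3 had log2 fold changes of -0.86 and -0.72 (edgeR adjusted p = 0.00157 and 0.00216), and the enhancer of C-propeptide cleavage Pcolce had -0.91 (edgeR adjusted p = 0.00674). Of 5 cross-linking enzymes 3 were lower and none was higher. Loxl2 went from 74.7 ± 8.59 to 14.3 ± 4.60 CPM (SD, n = 5; log2 fold change -2.38, SE 0.22, edgeR adjusted p = 1.39e-04), Lox had a log2 fold change of -1.64 and Loxl1 one of -0.77.

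Proteins on the fibril surface, such as the small leucine-rich proteoglycans and fibril-associated collagens, set spacing and contacts of fibrils. Of 16 such genes 7 were lower and none was higher, with a median log2 fold change of -0.83. Col12a1, a fibril-associated collagen, went from 1107 ± 166 to 199 ± 68.5 CPM (SD, n = 5; log2 fold change -2.47, SE 0.25, edgeR adjusted p = 2.26e-04). The matricellular proteins Postn (-2.24) and Thbs2 (-1.84) had the next smallest p-values of this list.

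The other collagens, which do not build banded fibrils, were the nearest comparison. Of 33 tested genes 15 were lower, 3 higher and 15 not called, with a median log2 fold change of -0.68, where the fibrillar chains had 8 lower, none higher and a median of -1.26. Col9a1, Col9a2 and Col10a1 among the 15 are also 3 of the 5 lower chondrocyte markers. The beaded-filament chains Col6a3 (-1.47) and Col6a1 (-1.53) were lower. The higher genes were the basement membrane chains Col4a3 (1.05) and Col4a5 (1.14) and the anchoring fibril chain Col7a1 (1.45). For Col7a1 the SE was 0.34 and the edgeR adjusted p was 0.0279. The difference between the fibrillar and the other collagens was not tested.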

How the data were processed

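RNA of flushed, pulverized femurs of 5 young and 5 aged mice was sequenced in paired reads, 1 library per mouse. The deposited counts per gene were made by the authors, who trimmed with Cutadapt, aligned to GRCm38.p6 with STAR and counted with featureCounts. The GEO labels name a human build, while the identifiers are those of mouse. The sources used here do not give strand use or the annotation release. All 10 columns were matched to a mouse by label, no 2 libraries held identical values, and gene lengths came from the table.

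Counts were tested in R 4.3.3 with edgeR 4.0.16: filterByExpr (minimum count 10, minimum total 15), TMM, a robust quasi-likelihood fit and Benjamini-Hochberg adjustment over 22088 genes. The SE was taken as the absolute log2 fold change over the root of F, with a median of 0.178. A prior count of 2 was added for log2 CPM in the profile comparison. Ratios were compared by exact permutation over all 252 assignments of the 10 libraries to groups of 5, of which 126 are distinct. Alternatives were other scalings, filters, DESeq2 1.42.0, limma-voom (limma 3.58.1), marker covariates, the replicate number as a block, group medians and leaving out each mouse. Scripts were tested on simulated data. Spans matched GENCODE vM21 for all 10 genes, and the table's length equalled the union of exons for 9. Python 3.11.15 (pandas 2.3.3, numpy 2.4.6, matplotlib 3.10.9) was used for tables and plots.

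The genes and lists were chosen with earlier results of these data known. Genes outside the 10 chains are named as the higher and lower members of each list with the smallest p, up to 3 per direction, and as the 5 nearest profiles of Col1a1 and Col3a1. Acan, Comp, Chad, Col9a3, Emcn and the osteocyte markers, Fgf23 among them, were named after their values were seen. Gm26917 was named for its share of the counts.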

Additional observations from a re-analysis of the deposited data

Results flagged for a closer look

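Of 44 sets of 5 values examined for a mouse standing apart, 3 were found, where about 1 in 20 would be so by chance. For Col1a2, aged mouse 5 had 14828 CPM, and the gap to the nearest other aged mouse was 0.777 of the range of the group. For Col5a2, aged mouse 5 had 525 CPM, with a gap of 0.720 of the range. For the ratio of Col11a1 to Col5a1 per kilobase, young mouse 5 had 0.478, with a gap of 0.791 of the range. The critical share for 5 values is 0.71. By TMM, aged mouse 5 was the highest aged mouse and young mouse 5 the lowest young mouse in 7 of the 10 chains, and young mouse 3 was the highest young mouse in all 10. No cause was tested.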

How the results depend on the processing

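No fold change or ratio changed direction under any alternative run. Of the 10 chains, 7 to 10 were lower in every one of 20 alternatives, and Col1a2, Col3a1, Col5a1, Col5a2, Col5a3, Col11a1 and Col24a1 kept their call in all of them. Over all genes DESeq2 called 1283 lower and 1545 higher, total counts 285 higher (median of all genes -0.16) and the marrow covariate 1230 higher. Leaving out 1 mouse gave 386 to 830 lower and 300 to 856 higher genes, with the lowest counts without young mouse 2 (386 and 300), young mouse 4 (448 and 366) and aged mouse 3 (479 and 470). Of the genes by role, 2 were higher with the muscle covariate and 2 to 4 when a mouse was left out (2 without young mouse 1 or 2 or aged mouse 5). Group medians gave, for the 5 ratios that passed, -1.25 for Col3a1 over Col1a1, -0.73 for Col11a1 over Col5a1, -1.31 for Col11a1 over Col11a2, -0.97 for Col11a1 over Col1a1 and 1.06 for Col5a2 over Col3a1, but the smallest exact permutation p they allow is 0.0476, so none can pass after adjustment unless all 12 do (adjusted p = 0.0816 for each). The median difference was 0.12 for Col5a3 over Col5a1 and 0.02 for Col1a1 over Col1a2. With 1 mouse left out, Col3a1 over Col1a1 ranged from -1.73 to -1.25 (missed without young mouse 2, 4 or 5), Col11a1 over Col1a1 from -1.04 to -0.77 (the same 3 mice) and Col5a2 over Col3a1 from 0.93 to 1.30 (missed without young mouse 2, 3, 4 or 5). The ranges were -0.51 to -0.32 for Col5a2 over Col1a1, 0.22 to 0.41 for Col5a1 over Col5a2, 0.33 to 0.53 for Col5a3 over Col5a1, 0.37 to 0.56 for Col24a1 over Col1a1, 0.34 to 0.71 for Col27a1 over Col1a1, -0.21 to -0.02 for Col5a1 over Col1a1 and 0.06 to 0.14 for Col1a1 over Col1a2. The cause of these changes was not tested. Transcript lengths gave 1.77 (young) and 1.91 (aged) for Col1a1 over Col1a2. The replicate numbers do not pair the mice: same-numbered mice correlated at -0.0996, 0.0424, 0.180, 0.188 and -0.0897, and 1 of 5 correlated best with its own number. With the number as a replicate block 957 genes were higher, 675 lower and 9 chains lower, with Col27a1 passing (log2 fold change -0.69, edgeR adjusted p = 0.0183), and the paired ratio differences (-1.53, -0.80, -1.36, -0.91 and 1.10) cannot pass, as 32 sign flips allow no p below 0.0625. Depth does not limit the chains, whose lowest count was 1338, and 5 mice a group limit the ratio test.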

Other observations

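Markers of other cells gave the following values beside the collagens. Of 6 osteocyte markers none was called lower and 1 was called higher, Fgf23, the hormone that lowers phosphate, at 1.23 ± 0.361 CPM in young and 2.52 ± 0.689 CPM in aged bone (SD, n = 5; log2 fold change 1.03, SE 0.23, edgeR adjusted p = 0.0185). The median log2 fold change of the 6 was -0.54, and 4 of them, with Fgf23, had an unadjusted edgeR p under 0.05. Phex (log2 fold change -0.80), Pdpn (-1.05), Mepe (-0.88) and Dmp1 (-0.28) were below 0 and Sost (0.35) above, none of them called. The summed level of the 6 osteocyte markers ranged from 412 to 569 CPM in young and from 194 to 647 CPM in aged bone. The 4 endothelial markers summed to 168 to 216 CPM in young and 155 to 188 CPM in aged bone, with only Emcn called lower (log2 fold change -0.60, edgeR adjusted p = 0.0284). The 3 adipocyte markers summed to 10.9 to 22.3 and 8.96 to 46.3 CPM, and none was called.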
